A study of Mus musculus with 68 samples.

Results

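Vcam1 and 3 integrin subunit genes that encode its receptors, Itga4, Itga9 and Itgb1, were followed in mouse pharyngeal arches. They are 4 of the 21948 genes in the deposited table, taken by symbol, and all 4 passed the filter on low values that kept 18428 genes. Vcam1 and Itga4 were selected on their measured difference between the wildtype and Hoxa2-/- labels in arch PA2 at E10.0 in these same libraries, and Itga9 and Itgb1 were added as known partners. That comparison, and others at E10.0 that use those libraries, are therefore described here without a test.

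Vcam1 is a cell surface protein of the immunoglobulin family, known from the endothelium of inflamed vessels, where it holds white blood cells, and from the embryo, where it is needed for the chorion to join the allantois and for the epicardium to cover the heart. An integrin is a pair of 1 alpha and 1 beta chain that spans the membrane. The alpha4 chain (Itga4) and the alpha9 chain (Itga9) each pair with beta1 (Itgb1) to bind Vcam1, and both also bind matrix proteins such as fibronectin, tenascin C and osteopontin. Pharyngeal arches are swellings beside the embryonic throat that are filled with neural crest mesenchyme around a core of mesoderm and covered by epithelium.

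RNA came from arch 1 (PA1), which forms the jaws, and arch 2 (PA2), the next toward the tail, in which Hoxa2, a homeobox transcription factor gene, is expressed. Embryos of the cross CBA/Ca/J x C57BL/10 were labelled wildtype or Hoxa2-/- and taken at embryonic day 9 (E9.0 and E9.5) or 10 (E10.0 and E10.5), with no treatment named. The allele behind the Hoxa2-/- label is not given in the sources used here. The 68 libraries form 16 groups of 3 to 5, from 35 embryos (18 wildtype and 17 labelled Hoxa2-/-), of which 33 gave both arches. Values by stage run from the earliest to the latest. Wildtype PA1 had 5, 5, 5 and 3 libraries, wildtype PA2 had 4, 4, 5 and 3, and both arches labelled Hoxa2-/- had 4, 5, 5 and 3. Each library is a whole arch, so fewer cells of a type and less RNA per cell cannot be told apart.

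Libraries held 8912251 to 20619153 reads, at which 3 reads equal 0.14 to 0.328 CPM, the deposited unit, which is scaled to sequencing depth. Hoxa2 itself was not lower in PA2 under the Hoxa2-/- label, where its mean was 28.7, 60.7, 97.7 and 132 CPM by stage against 22.3, 40.7, 47.5 and 58.3 CPM in wildtype PA2. The groups are therefore called by their label throughout. A further division touches the labels: 19 genes, none of them among these 4, did not overlap between 24 libraries, those labelled wildtype at every stage but E10.0, and the other 44. The label and this division cannot be told apart except at E10.0, where both labels lie on the same side, whereas comparisons of arches, and of E10.5 with E9.0, lie within 1 side of it. In 8 libraries the summed red cell or yolk sac markers exceeded 5 times their group median, and results that change without them are given with both values.

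In the GENCODE M21 annotation of GRCm38, Vcam1 (ENSMUSG00000027962) lies at chr3:116109949-116129688 on the minus strand, with 8870 bases of merged exons and 3 coding transcripts of 4. Itga4 (ENSMUSG00000027009) lies at chr2:79255426-79333123 on the plus strand, with 13978 exon bases and 1 coding transcript of 5. Itga9 (ENSMUSG00000039115) lies at chr9:118606690-118901003 on the plus strand, with 7691 exon bases and 3 coding transcripts of 6. Itgb1 (ENSMUSG00000025809) lies at chr8:128685654-128733200 on the plus strand, with 4081 exon bases and 2 coding transcripts of 4. The values are sums over each gene, so its transcripts are not told apart. Whether reads were counted by strand is not given in the sources used here, and 3 of the 4 genes overlap a gene on the opposite strand. For Itga9 these are the processed pseudogene Gm10157, which has its own values of up to 42.3 CPM, and the antisense gene Gm2415, with up to 0.829 CPM.

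The 250 bases before the start of Itga4 and Itgb1, the alpha and beta chain with the lowest and highest level here, are shown from RefSeq (GRCm38.p6), 5′ to 3′ on the plus strand, with a GC box in capitals. They lie at chr2:79255176-79255425 and chr8:128685404-128685653.
Itga4: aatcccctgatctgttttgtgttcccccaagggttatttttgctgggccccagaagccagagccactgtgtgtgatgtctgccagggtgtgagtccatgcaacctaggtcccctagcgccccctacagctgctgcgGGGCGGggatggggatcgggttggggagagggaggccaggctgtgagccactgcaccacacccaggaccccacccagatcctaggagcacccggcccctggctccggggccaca
Itgb1: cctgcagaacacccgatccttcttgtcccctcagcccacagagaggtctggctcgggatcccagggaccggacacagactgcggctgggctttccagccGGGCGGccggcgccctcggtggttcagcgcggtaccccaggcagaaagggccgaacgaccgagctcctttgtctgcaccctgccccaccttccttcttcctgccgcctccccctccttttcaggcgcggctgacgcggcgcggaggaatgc
Each stretch held 1 match to the GC box GGGCGG on either strand, as did 32.7% of 32851 mouse promoter stretches of this length. Neither held the Meis half-site TGACAG, found in 15.9% of the stretches, or the Hox-Pbx letters TGATNNAT, found in 7.68%. A missing match says only that these letters are not in this window. No promoter is shown for Vcam1 and Itga9.

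Per kilobase of exon, Itgb1 was at the highest level of the 4 genes in all 16 groups, with group means of 77.5 to 144 CPM per kilobase. Itga9 followed with 4.46 to 14.4 and Vcam1 with 1.0 to 8.22 CPM per kilobase. Itga4 was lowest, at 0.0753 to 0.532 CPM per kilobase, and rested on 7 to 152 reads in a library, so its values carry the widest counting error. By mean level over all libraries, Itgb1 stood at percentile 98.7 of the genes in the table, Itga9 at 85.3, Vcam1 at 67.3 and Itga4 at 42.5. Each of the 4 genes followed its own course over arches and stages, as the plot of levels by library shows.

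**Figure D1:**
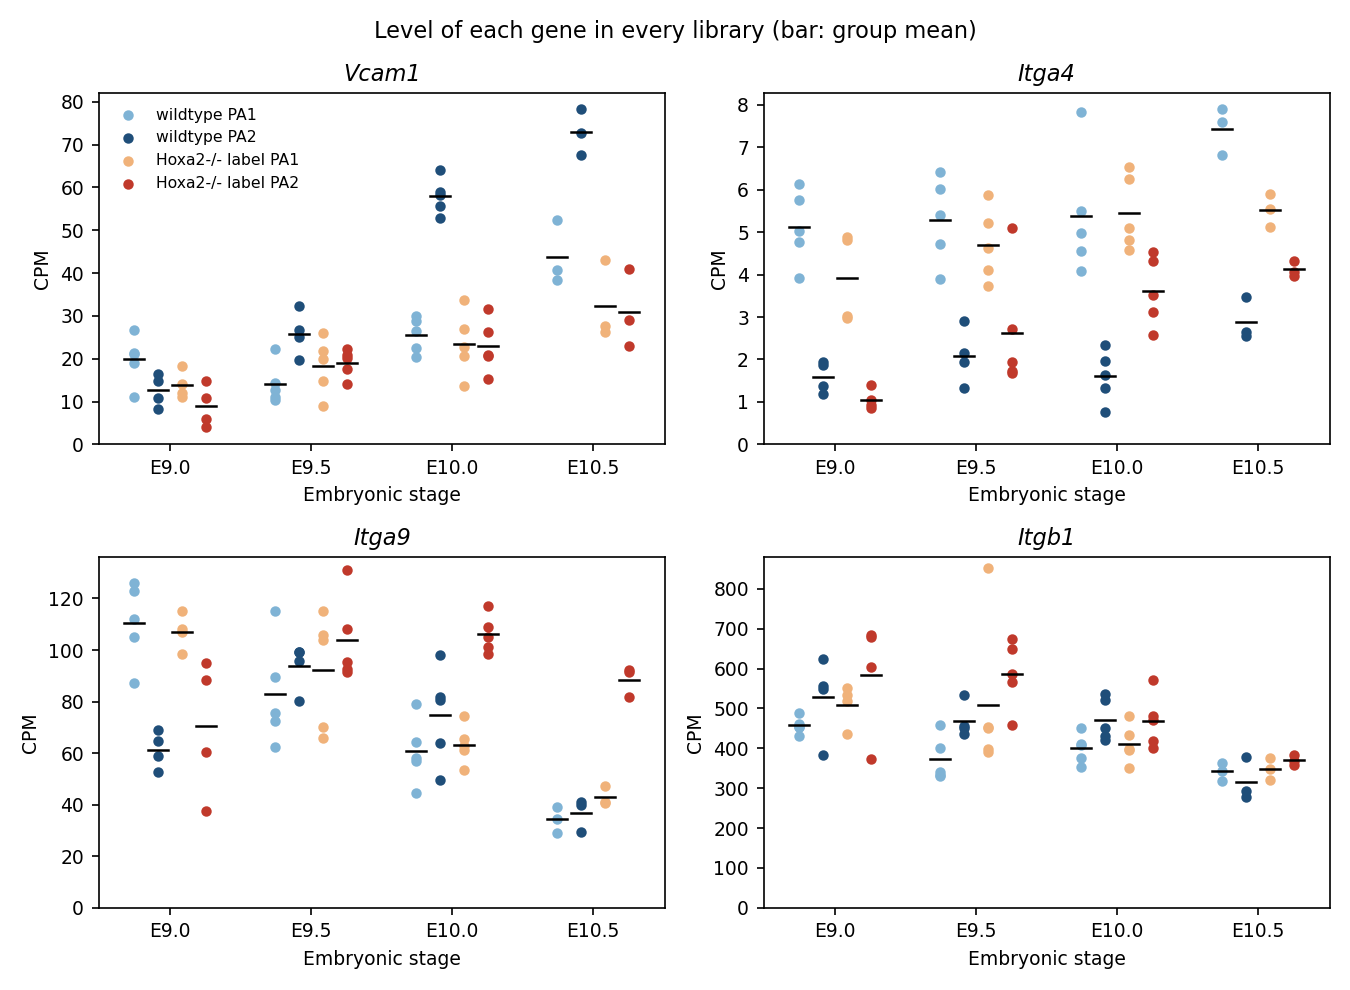
Level in CPM (linear axis from 0) of Vcam1, Itga4, Itga9 and Itgb1 in every library against embryonic stage, with a point for each library, colours for arch and label, and a bar for each group mean. Vcam1 in wildtype PA2 reached 52.9 to 64.1 CPM at E10.0 and 67.6 to 78.2 CPM at E10.5, above every other group, and Itga4 was lower in PA2 than in PA1 in each label and stage by group mean. The PA2 libraries of E10.0 served to choose Vcam1 and Itga4.

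Vcam1 rose from E9.0 to E10.5 in both arches under both labels, most in wildtype PA2. In wildtype PA2 it was 10.8, 8.34, 16.4 and 14.8 CPM at E9.0, then 26.7, 25, 19.6 and 32.2 CPM at E9.5. It was 55.7, 58.2, 64.1, 52.9 and 58.8 CPM there at E10.0 and 67.6, 78.2 and 72.8 CPM at E10.5. Each of these stages lay above the one before without overlap, although the steps into and out of E10.0 cross the division of libraries and cannot be told apart from it. In wildtype PA1, Vcam1 was 21.4, 21.0, 11.1, 26.7 and 19.1 CPM at E9.0 and 11.1, 12.8, 22.2, 10.4 and 14.3 CPM at E9.5. It then was 30, 20.4, 28.8, 22.4 and 26.5 CPM at E10.0 and 38.3, 52.3 and 40.7 CPM at E10.5. The PA1 libraries of E9.0 and E9.5 overlapped, and those of E10.5 lay above all earlier ones.

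Under the Hoxa2-/- label Vcam1 stayed lower in PA2 at the later stages. In PA2 it was 5.97, 14.8, 3.97 and 10.8 CPM at E9.0, and 17.7, 14.1, 22.2, 20.8 and 20.1 CPM at E9.5. It was 15.2, 26.2, 20.9, 31.7 and 20.6 CPM in PA2 at E10.0 and 40.9, 29.0 and 22.9 CPM at E10.5, so that these later stages overlapped. In PA1 with this label Vcam1 was 11.1, 18.3, 14.1 and 11.9 CPM at E9.0 and 20, 9.02, 14.7, 21.9 and 25.9 CPM at E9.5. It was 13.6, 33.7, 26.9, 22.8 and 20.6 CPM in PA1 at E10.0 and 43.0, 26.2 and 27.6 CPM at E10.5. Both arches with this label thus had overlapping levels at E9.5, E10.0 and E10.5. In the order of the 16 group means of Vcam1, only 3 of 15 neighbouring pairs differed by more than the larger SD: wildtype PA2 at E10.5 (72.9 ± 5.28 CPM, SD, n = 3) stood above wildtype PA2 at E10.0 (57.9 ± 4.17, n = 5), this above wildtype PA1 at E10.5 (43.8 ± 7.47, n = 3), and this above PA1 labelled Hoxa2-/- at E10.5 (32.2 ± 9.31, n = 3). All 3 of these steps cross the division of libraries and cannot be told apart from it. Those that involve wildtype PA2 at E10.0 also rest on libraries that served to choose Vcam1. The other 12 group means, down to 8.88 ± 4.87 CPM (SD, n = 4) in PA2 labelled Hoxa2-/- at E9.0, formed a series without such a step.

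E10.5 was tested against E9.0 with limma on log2(CPM + 1), with p-values adjusted by Benjamini-Hochberg over the 18428 genes, as in all tests below, and called at an adjusted p under 0.05. Of the 4 genes, 4 were called in wildtype PA1 and 4 in wildtype PA2, against 42.5% and 36.9% of all genes. With the Hoxa2-/- label 3 were called in PA1 and 3 in PA2, against 31.2% and 30.9%. These shares are large, so a call by itself sets no gene apart. The Vcam1 mean at E10.5 was 5.79 times that at E9.0 in wildtype PA2 (log2 difference 2.48, SE 0.29, adjusted p = 5.7e-10) and 2.2 times in wildtype PA1 (1.14, SE 0.28, adjusted p = 0.00067). With that label it was 3.48 times in PA2 (1.79, SE 0.29, adjusted p = 2e-06) and 2.32 times in PA1 (1.15, SE 0.29, adjusted p = 0.0016).

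Itga4 was lower in PA2 than in PA1 at every stage and under both labels, in 16 of 16 wildtype embryos and 17 of 17 embryos labelled Hoxa2-/-. Among them are the E10.0 embryos, 5 of each label, whose PA2 libraries served to choose Itga4 and which are described only. In wildtype PA1 Itga4 was 5.02, 5.75, 4.77, 3.93 and 6.14 CPM at E9.0 and 6.81, 7.59 and 7.91 CPM at E10.5, with E9.5 (3.9 to 6.41) and E10.0 (4.08 to 7.82) between or overlapping. In wildtype PA2 Itga4 was 1.18, 1.87, 1.38 and 1.95 CPM at E9.0, and 2.15, 1.32, 1.93 and 2.9 CPM at E9.5. It was 2.34, 0.762, 1.64, 1.32 and 1.96 CPM there at E10.0 and 2.64, 3.48 and 2.55 CPM at E10.5. The wildtype arches did not overlap at any stage. In PA2 labelled Hoxa2-/- Itga4 was 0.852, 1.4, 1.04 and 0.923 CPM at E9.0 and 1.93, 1.72, 1.67, 5.1 and 2.71 CPM at E9.5. It was 3.13, 4.33, 4.53, 3.53 and 2.58 CPM in this group at E10.0 and 3.97, 4.32 and 4.07 CPM at E10.5, nearer to PA1. PA1 with this label held 2.98 to 4.88 CPM at E9.0, 3.73 to 5.87 at E9.5, 4.59 to 6.54 at E10.0 and 5.11 to 5.9 CPM at E10.5. Among the 15 neighbouring pairs in the order of Itga4 group means, 1 differed by more than the larger SD, that of wildtype PA1 at E10.5 (7.44 ± 0.568 CPM, SD, n = 3) above PA1 labelled Hoxa2-/- at E10.5 (5.52 ± 0.392, n = 3). This pair lies across the division of libraries.

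From E9.0 to E10.5 Itga4 rose 3.92-fold in PA2 labelled Hoxa2-/- (log2 difference 1.32, SE 0.20, adjusted p = 7.6e-07). In wildtype PA2 it rose 1.81-fold (0.59, SE 0.20, adjusted p = 0.019) and in wildtype PA1 1.45-fold (0.47, SE 0.20, adjusted p = 0.045). In PA1 labelled Hoxa2-/- the log2 difference of Itga4 was 0.43 (SE 0.20) with an adjusted p of 0.1. The wildtype calls were weak. In PA2 the adjusted p was 0.064 without E9.0 replicate 1 and 0.11 without E10.5 replicate 2, and in PA1 it was 0.061 to 0.13 without any of E9.0 replicates 1, 3 and 4 or E10.5 replicates 1, 2 and 3. Without the libraries high in red cell or yolk sac markers, the wildtype PA1 difference of Itga4 was 0.35 with an adjusted p of 0.22, and edgeR gave 0.06.

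Itga9 fell from E9.0 to E10.5 in 3 of the 4 combinations of arch and label, and PA2 labelled Hoxa2-/- kept a high level. In wildtype PA1 it was 87.4 to 126 CPM at E9.0 (median 112), 62.2 to 115 at E9.5, 44.6 to 79.2 at E10.0, and 29.2, 34.5 and 39.2 CPM at E10.5. In wildtype PA2 Itga9 was 69.0, 52.8, 59.0 and 64.7 CPM at E9.0, 80.1 to 99.4 at E9.5, 49.5 to 97.9 at E10.0, and 39.7, 41.1 and 29.6 CPM at E10.5. PA2 thus began below PA1 at E9.0 and overlapped it at E9.5, E10.0 and E10.5. In wildtype the steps into and out of E10.0 cross the division of libraries and cannot be told apart from it. In PA1 labelled Hoxa2-/- Itga9 was 107, 108, 115 and 98.6 CPM at E9.0, 66.0 to 115 at E9.5, 53.3 to 74.3 at E10.0, and 40.5, 47.2 and 41.2 CPM at E10.5. In PA2 with this label it was 95, 88.2, 37.6 and 60.6 CPM at E9.0 and 91.6 to 131 CPM at E9.5. It then was 98.4 to 117 CPM at E10.0 and 81.8, 92.3 and 91.3 CPM at E10.5. At E10.5 these 3 libraries lay above all 9 libraries of the other groups, whose highest was 47.2 CPM. In the order of its 16 group means, 1 of 15 neighbouring pairs of Itga9 differed by more than the larger SD, which set wildtype PA1 at E10.0 (60.7 ± 12.6 CPM, SD, n = 5) above the 3 low groups of E10.5.

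The fall of Itga9 from E9.0 to E10.5 was to 0.309 of its E9.0 mean in wildtype PA1 (log2 difference -1.66, SE 0.19, adjusted p = 4e-10) and to 0.599 in wildtype PA2 (-0.73, SE 0.20, adjusted p = 0.0034). In PA1 labelled Hoxa2-/- it fell to 0.401 (-1.30, SE 0.20, adjusted p = 1.1e-06). In PA2 with this label the log2 difference of Itga9 was 0.41 (SE 0.20) with an adjusted p of 0.12, and without E9.0 replicate 1 or 2 it was 0.58 or 0.55, with an adjusted p of 0.026 or 0.041. The overlapping Gm10157 fell in all 4 of these comparisons, by 0.36 to 0.65 on the log2 scale.

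Itgb1, the shared beta chain, varied least. Its group means ran from 316 CPM in wildtype PA2 at E10.5 to 587 CPM in PA2 labelled Hoxa2-/- at E9.5, and none of the 15 neighbouring pairs in their order differed by more than the larger SD. In wildtype PA1 its libraries spanned 431 to 489 CPM at E9.0, 330 to 458 at E9.5, 354 to 450 at E10.0 and 319 to 363 at E10.5. In wildtype PA2 they spanned 382 to 623, 435 to 533, 420 to 536 and 278 to 378 CPM. With the Hoxa2-/- label the spans of Itgb1 were 437 to 550, 391 to 851, 350 to 480 and 320 to 376 CPM in PA1, and 373 to 683, 458 to 675, 402 to 570 and 358 to 384 CPM in PA2. The lowest levels of each arch and label were thus those of E10.5. From E9.0 to E10.5 Itgb1 fell by 0.42 (SE 0.16, adjusted p = 0.032) in wildtype PA1 and by 0.73 (SE 0.17, adjusted p = 0.00054) in wildtype PA2, on the log2 scale. It fell by 0.55 (SE 0.17, adjusted p = 0.01) in PA1 and by 0.62 (SE 0.17, adjusted p = 0.0036) in PA2 labelled Hoxa2-/-. The call in wildtype PA1 was lost without E9.0 replicate 4 or E10.5 replicate 1 or 3 (adjusted p 0.058 to 0.12), and that in PA1 labelled Hoxa2-/- without E10.5 replicate 2 (adjusted p 0.053).

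PA2 was then compared with PA1. Among the 4 genes, 2 were called in wildtype at E9.0 (both lower in PA2), 2 at E9.5 (1 higher, 1 lower) and 1 at E10.5 (lower), against 18.7%, 26.3% and 1.52% of all genes. Under the Hoxa2-/- label 3 were called at E9.0 (all lower), 1 at E9.5 (lower) and 1 at E10.5 (higher), against 24.6%, 9.58% and 1.37%. The gene called at E10.5 in wildtype was Itga4, and the one under the Hoxa2-/- label was Itga9.

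The direction of the Vcam1 difference turned between E9.0 and E9.5. At E9.0 the wildtype PA2 mean was 0.633 of that of PA1 (log2 difference -0.61, SE 0.25, adjusted p = 0.086), and PA2 was lower in 4 of 4 embryos. With the embryo as a block the difference was -0.79 and was called (adjusted p = 0.0034), as it was without PA1 replicate 3 (-0.79, adjusted p = 0.027). At E9.5 wildtype PA2 was 1.82 times PA1 (0.85, SE 0.25, adjusted p = 0.01) and higher in 3 of 4 embryos, with an adjusted p of 0.054 without PA2 replicate 5. At E10.0, described only, it was 2.26 times PA1 and higher in 5 of 5 embryos. At E10.5 it was 1.66 times PA1, higher in 3 of 3 embryos and without overlap, but the adjusted p was 0.48 (log2 difference 0.73, SE 0.31). In a fit of the compared groups alone that difference had an adjusted p of 0.016.

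Under the Hoxa2-/- label PA2 held less Vcam1 than PA1 at E9.0, in 4 of 4 embryos, by 0.70 on the log2 scale (SE 0.27, adjusted p = 0.046). This call was lost without PA2 replicate 3 (-0.42, adjusted p = 0.29), which had high yolk sac markers, and also without PA1 replicates 2, 3 or 4 or PA2 replicate 1 (adjusted p 0.054 to 0.16), and edgeR gave an adjusted p of 0.13. From E9.5 on the arches with this label did not differ in Vcam1 by the test. The log2 difference was 0.11 at E9.5 (95% interval -0.37 to 0.59, adjusted p = 0.83) and -0.06 at E10.5 (-0.68 to 0.56, adjusted p = 0.98). At E10.0, described only, it was -0.02, with PA2 higher in 2 of 5 embryos.

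Itga4 was called lower in wildtype PA2 at each tested stage. Its PA2 mean was 0.312 of that of PA1 at E9.0 (log2 difference -1.24, SE 0.18, adjusted p = 5.2e-07), 0.393 at E9.5 (-1.04, SE 0.18, adjusted p = 2.2e-05) and 0.388 at E10.5 (-1.12, SE 0.22, adjusted p = 0.00056). At E10.0, described only, it was 0.297. Under the Hoxa2-/- label the ratio of Itga4 was 0.268 at E9.0 (-1.24, SE 0.19, adjusted p = 1.5e-06), 0.558 at E9.5 (-0.72, SE 0.17, adjusted p = 0.0026) and 0.746 at E10.5 (-0.35, SE 0.22, adjusted p = 0.62). It was 0.663 at E10.0, described only. The arches with this label thus lay closer together in Itga4 at later stages, although PA2 stayed below PA1 in each embryo.

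Itga9 was lower in PA2 than in PA1 at E9.0 under both labels. The log2 difference was -0.84 in wildtype (SE 0.18, adjusted p = 0.00043) and -0.68 under the Hoxa2-/- label (SE 0.19, adjusted p = 0.0052), with PA2 lower in 4 of 4 embryos of each. The latter was -0.42 without PA2 replicate 3 (adjusted p = 0.093). In wildtype Itga9 did not differ by the test at E9.5 (0.20, 95% interval -0.16 to 0.56) or E10.5 (0.09, -0.34 to 0.53). Under the Hoxa2-/- label it did not at E9.5 (0.19, -0.14 to 0.53), and at E10.5 its PA2 mean was 2.06 times that of PA1 (1.03, SE 0.22, adjusted p = 0.0024), higher in 3 of 3 embryos. At E10.0, described only, this ratio was 1.67, with PA2 higher in 5 of 5 embryos. Itgb1 was not called between arches in any tested comparison. Its log2 differences ran from -0.12 to 0.34, with the highest at E9.5 in wildtype (adjusted p = 0.085). At that stage Itgb1 was called higher in PA2 without wildtype PA1 replicate 2 (0.42, adjusted p = 0.036) and, for the Hoxa2-/- label, without PA1 replicate 3 (0.46, adjusted p = 0.012).

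Markers of other cell types also differed between the arches. In wildtype 18.7% of all genes were called between arches at E9.0, 26.3% at E9.5 and 1.52% at E10.5, in either direction. Under the Hoxa2-/- label 24.6% were called at E9.0. Against the shares of E9.0 and E9.5, 1 or 2 calls in a list do not by themselves show a shift of a cell type. At E9.0 Itga4 and Itga9 were called lower in PA2, and Vcam1 was lower there by mean but not called in wildtype. In PA2 of that stage 5 of 5 heart muscle markers were higher under either label, and 6 of 6 red cell markers in wildtype. The red cell sum was 63560 CPM in wildtype PA2 replicate 2 and 3283 to 4810 CPM in the other libraries of that group, against 1480 to 6390 CPM in PA1. The heart muscle sums were 29.2 to 892 CPM in PA2 against 13.4 to 32.6 CPM in PA1 of wildtype embryos. Of 6 crest mesenchyme markers 5 were lower in wildtype PA2 at that stage, with sums of 281 to 352 against 427 to 492 CPM, and of 7 cranial mesoderm markers 3 were higher and 2 lower. Under the Hoxa2-/- label 3 of the 6 crest mesenchyme markers were lower and 1 higher. At E9.5, when Vcam1 was higher in wildtype PA2, the markers called higher there were 2 of 5 for heart muscle, 5 of 7 for cranial mesoderm (with 1 lower), 1 of 2 for somite mesoderm, 2 of 3 for epicardium, 3 of 4 for neurons and 2 of 5 for epithelium. Of the others at that stage 1 of 6 crest mesenchyme markers was lower, and none of 8 endothelial, 6 macrophage, 6 red cell and 5 yolk sac markers was called. At E10.5 in wildtype, when Itga4 was lower in PA2, 2 of 2 somite mesoderm markers were higher there, cranial mesoderm had 2 of 7 higher and 1 lower, and no marker of the other 9 lists was called. Between E9.0 and E10.5, as Vcam1 rose in wildtype PA2, 6 of 6 macrophage markers rose (sums of 0.552 to 4.86 and 11.5 to 17.6 CPM), while 5 of 5 heart muscle, 5 of 8 endothelial and 3 of 5 epithelial markers fell. A further epithelial marker, 1 of the 5, rose, and 36.9% of all genes were called in this comparison. Cranial mesoderm had 2 of 7 higher and 3 lower, and crest mesenchyme 2 of 6 higher and 2 lower. Each of the other lists had at most 1 marker called higher and at most 1 called lower. The part of these cell types in the arch and stage differences of the 4 genes was not tested.

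**Figure D2:**
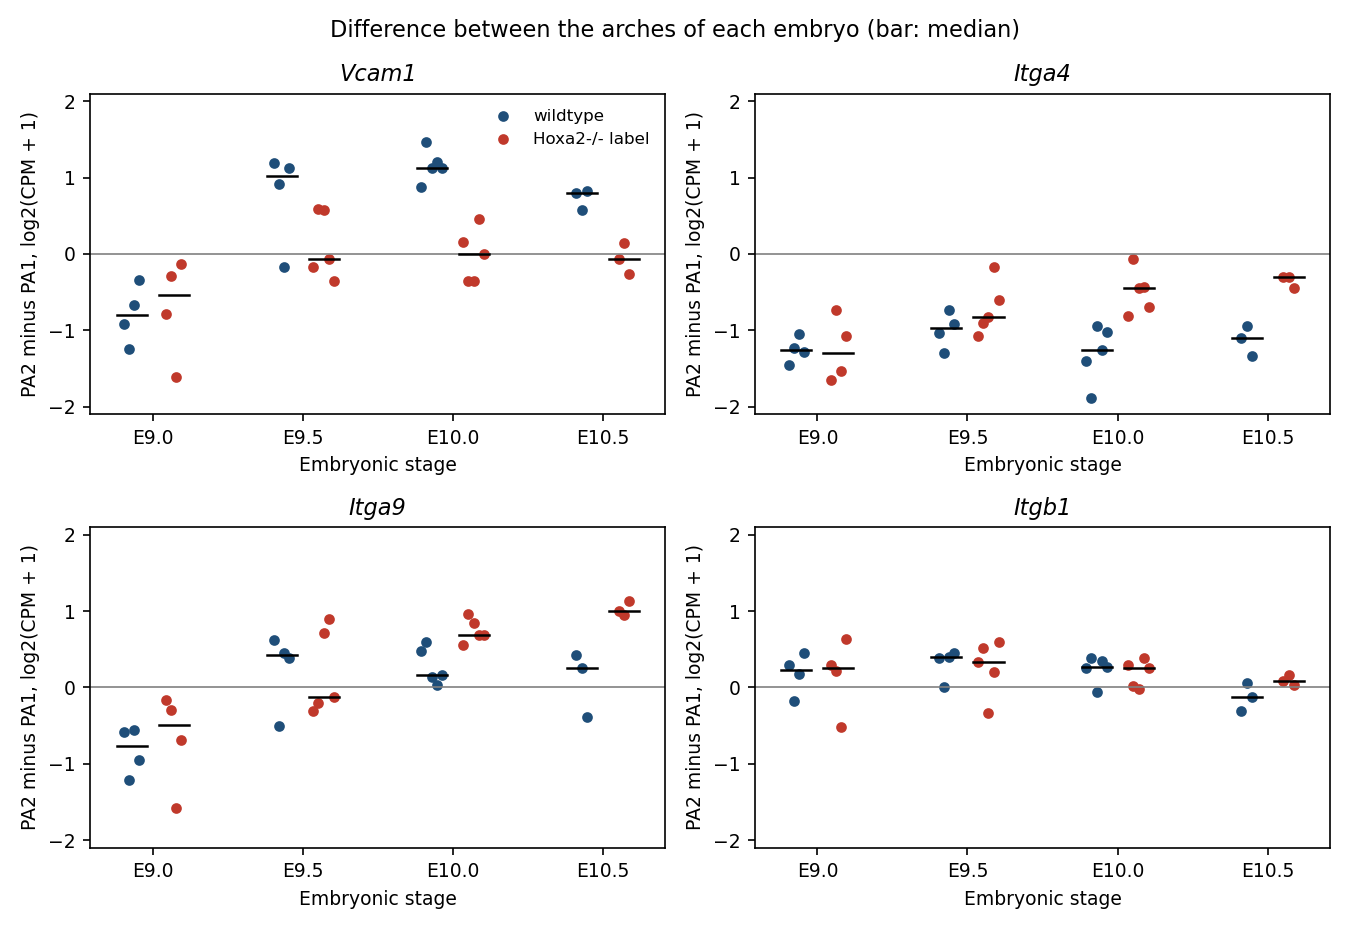
Difference of PA2 minus PA1 on the log2(CPM + 1) scale for each of the 33 embryos with both arches, against embryonic stage, with a point for each embryo, colours for label and a bar for each median. Vcam1 lay below 0 in all embryos at E9.0 and above 0 in all wildtype embryos at E10.0 and E10.5, Itga4 lay below 0 in all 33, and Itga9 lay above 0 in all embryos labelled Hoxa2-/- at E10.0 and E10.5. Embryos of E10.0, whose PA2 libraries served to choose Vcam1 and Itga4, are described only.

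Whether the difference between arches itself changed from E9.0 to E10.5 was tested within each label, a comparison added after the values had been seen. In wildtype 2 of the 4 genes were called, both toward PA2, against 3.35% of all genes, and under the Hoxa2-/- label 2 were called, both toward PA2, against 7.33%. Vcam1 shifted by 1.34 in wildtype (SE 0.40, adjusted p = 0.045) and by 0.64 under the Hoxa2-/- label (SE 0.41, adjusted p = 0.37). Itga9 shifted by 0.93 in wildtype (SE 0.28, adjusted p = 0.049), a call that was lost with the embryo as a block (0.92, adjusted p = 0.053), and by 1.71 under the Hoxa2-/- label (SE 0.29, adjusted p = 6.9e-05). Itga4 shifted by 0.11 in wildtype (SE 0.28, adjusted p = 0.91) and by 0.89 under the Hoxa2-/- label (SE 0.29, adjusted p = 0.046). Itgb1 shifted by -0.31 and -0.07 (adjusted p 0.6 and 0.9). Apart from Itga9 under the Hoxa2-/- label, whose adjusted p stayed at 0.00058 or below with each of its libraries left out in turn, these calls stood near the threshold. Each of the other 3 was lost by leaving out any of 11 libraries, with adjusted p of 0.058 to 0.13 for Vcam1, 0.056 to 0.16 for Itga9 in wildtype and 0.057 to 0.12 for Itga4. The Vcam1 call was kept only without wildtype PA1 E9.0 replicate 3, PA2 E9.0 replicates 4 or 5, or PA1 E10.5 replicate 2. That of Itga9 was kept only without wildtype PA1 E9.0 replicate 4, PA2 E9.0 replicate 1, or replicate 3 of either arch at E10.5. That of Itga4 was kept only without PA1 E9.0 replicates 2 or 4 or PA2 E9.0 replicate 2 of the Hoxa2-/- label.

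Within PA2, the labels were compared at each stage. At E10.0, the comparison from which Vcam1 and Itga4 were chosen, 3 of the 4 genes did not overlap between labels, where 2.21% of all genes did not, and nothing is read from this count. Vcam1 there was 22.9 ± 6.28 CPM (SD, n = 5) under the Hoxa2-/- label and 57.9 ± 4.17 CPM (n = 5) in wildtype, a log2 difference of -1.34. Itga4 was 3.62 ± 0.817 against 1.6 ± 0.605 CPM (0.84), Itga9 was 106 ± 7.45 against 74.7 ± 18.6 CPM (0.54), and Itgb1 was 469 ± 66.1 against 472 ± 53.1 CPM (-0.01).

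The E10.5 libraries do not enter the difference on which Vcam1 and Itga4 were selected, although earlier results of them were known. In PA2 at E10.5, 2 of the 4 genes were called, Vcam1 lower and Itga9 higher, against 10.3% of all genes. Vcam1 was 30.9 ± 9.16 CPM (SD, n = 3) under the Hoxa2-/- label and 72.9 ± 5.28 CPM (n = 3) in wildtype, a ratio of 0.424 (log2 difference -1.25, SE 0.31, adjusted p = 0.0052) without overlap. Leaving out replicate 3 of the Hoxa2-/- label, the lowest, gave -1.06 with an adjusted p of 0.054. Itga9 was 88.5 ± 5.83 CPM (SD, n = 3) under the Hoxa2-/- label and 36.8 ± 6.29 CPM (n = 3) in wildtype, a ratio of 2.4 (1.25, SE 0.22, adjusted p = 6e-05), also without overlap. Gm10157 differed there by 0.06 (adjusted p = 0.84). Itga4 was 4.12 ± 0.182 against 2.89 ± 0.511 CPM without overlap, but was not called (0.40, 95% interval -0.03 to 0.84, adjusted p = 0.25). Itgb1 was 370 ± 13.1 against 316 ± 54.1 CPM (0.24, adjusted p = 0.46).

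At E9.0 and at E9.5 none of the 4 genes was called between labels in PA2 by limma or by edgeR, against 14% and 4.48% of all genes by limma, and at each of these stages 1 had an unadjusted p under 0.05. The share at E9.0 depended on the fit: limma called 2585 genes with all groups and 15 in a fit of the compared groups alone. At E9.0, 4 of 6 red cell markers were called lower under the Hoxa2-/- label, with sums of 1800 to 3820 CPM against 3280 to 63600 CPM. The highest sum was that of wildtype replicate 2, and the other wildtype libraries held 3283 to 4810 CPM. For Vcam1 the log2 differences were -0.56 (95% interval -1.10 to -0.02, adjusted p = 0.16) and -0.42 (-0.93 to 0.09, adjusted p = 0.39). The former was called without replicate 2 of the Hoxa2-/- label (-0.83, adjusted p = 0.033). In PA1 the tests called 0, 1, 0 and 0 of the 4 genes by stage, against 2.08%, 23.6%, 0% and 3.05% of all genes. Of the stages without a call, none had a member with an unadjusted p under 0.05 or a call by edgeR, and at E10.0, where no gene was called by limma or edgeR, 424 genes had an unadjusted p under 0.05. The call in PA1 was Itgb1 at E9.5, at 509 ± 194 CPM (SD, n = 5) under the Hoxa2-/- label and 373 ± 56.4 CPM (n = 5) in wildtype (0.39, SE 0.14, adjusted p = 0.034). It rested on replicate 3 of the Hoxa2-/- label, at 851 CPM, without which it was 0.19 (adjusted p = 0.31), and it was also lost without wildtype replicate 1, 4 or 5 (0.35 to 0.36, adjusted p 0.071 to 0.098). Vcam1 in PA1 differed by -0.47, 0.32, -0.16 and -0.45 by stage.

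The label difference in PA2 was not shown to differ from that in PA1. Of the 4 genes 0 were called for this difference of differences by limma or edgeR at the 3 tested stages, against 0%, 0.0109% and 0.038% of all genes, and 0, 1 and 2 had an unadjusted p under 0.05. At E9.0, where no gene was called by either tool, 1083 genes had an unadjusted p under 0.05. At E10.5 it was -0.79 for Vcam1 (95% interval -1.67 to 0.08), 0.77 for Itga4 (0.16 to 1.39) and 0.93 for Itga9 (0.32 to 1.55), with adjusted p of 1, 1 and 0.9. At E10.0, described only, it was -1.18 for Vcam1, 0.81 for Itga4, 0.46 for Itga9 and -0.05 for Itgb1.

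**Figure D3:**
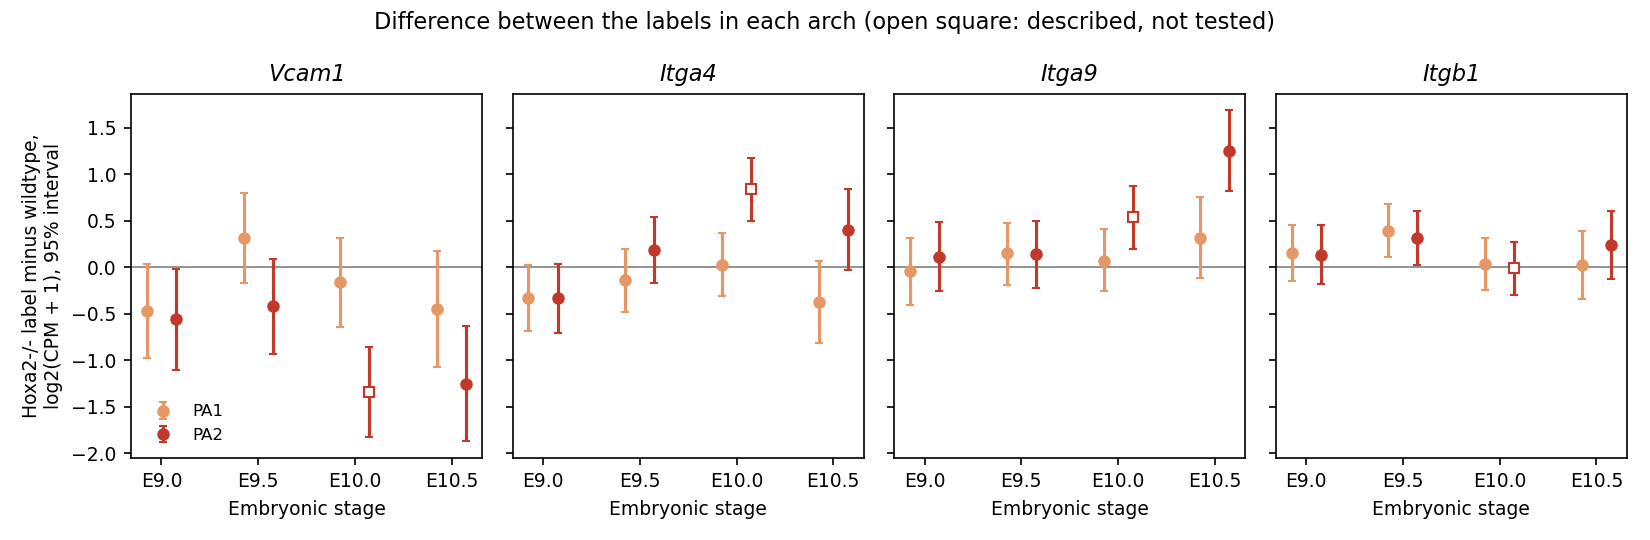
Difference of the Hoxa2-/- label minus wildtype on the log2(CPM + 1) scale in PA1 and PA2 against embryonic stage for each gene, with points for the fitted difference and bars for its 95% interval. Open squares mark PA2 at E10.0, where Vcam1 (-1.34) and Itga4 (0.84) were chosen and no test is given, and at E10.5 in PA2 Vcam1 lay at -1.25 and Itga9 at 1.25.

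Vcam1 is also made by cell types other than the mesenchyme, and single markers of several were called between the labels in PA2. Of all genes 4.48% were called there at E9.5 and 10.3% at E10.5, so 1 or 2 calls in a list do not by themselves show a shift of a cell type. The somite mesoderm list (Meox1, Meox2, Pax7 and Tbx6, of which 3 were in the table) had median sums of 11 CPM in wildtype PA2 and 7.87 CPM under the Hoxa2-/- label at E10.0, without overlap, and sums of 18.0 to 23.7 against 8.0 to 9.91 CPM at E10.5. Of its 2 genes tested, Meox1 was called lower at E10.5 (-1.47) and also at E9.5 (8.5 against 25.5 CPM, -1.70, adjusted p = 0.0017). At E10.0, described only, Meox1 averaged 1.1 against 6.77 CPM. At E10.5 the 6 macrophage markers summed to 11.5 to 17.6 against 5.19 to 11.4 CPM, with 1 of 6 called lower, and the neuron markers to 18.0 to 22.8 against 7.92 to 11.9 CPM, with 1 of 4 called lower. Epithelium had 1 of 5 called lower, Krt5 (0.99 against 4.62 CPM, -1.54, adjusted p = 2.8e-05), and cranial mesoderm 1 of 7, Myf5 (2.46 against 5.76 CPM, -0.98, adjusted p = 0.0065). Neurod1 was at 0 in all wildtype PA2 libraries of that stage. Of the arch crest mesenchyme markers, 2 of 6 were called higher (Dlx2 and Prrx2), with sums of 375 to 389 in wildtype and 479 to 510 CPM under the label. Endothelial markers, of a cell type known for Vcam1, summed to 181 to 198 in wildtype and 215 to 273 CPM under the label, and 0 of 8 were called. These sums did not overlap between the labels. The part of these cell types in the levels of Vcam1, Itga4 and Itga9 was not tested.

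The ligands and partners of these receptors were read from lists of related genes, for which Vcam1, Itga4, Itga9 and Itgb1 were left out. Of 8 further ligands of the alpha4 and alpha9 integrins, 4 were called higher and 0 lower in wildtype PA2 than in PA1 at E9.5, where 26.3% of all genes were called in either direction, with a median log2 difference of 0.64 against 0.01 over all genes. Fibronectin (Fn1) averaged 648 against 235 CPM and tenascin C (Tnc) 73.5 against 14.1 CPM. At E9.0 Itga4 and Itga9 were called lower in wildtype PA2, and Vcam1 was lower by mean but not called. Fn1 and Tnc were called higher there, as at E9.5: Fn1 averaged 763 against 342 CPM and Tnc 102 against 18.8 CPM. Emilin1, by contrast, was called lower in PA2 at E9.0 (109 against 154 CPM, -0.48, adjusted p = 0.023). Between E9.0 and E10.5 Fn1 in wildtype PA2 fell to 238 CPM and Tnc to 8.32 CPM. In the same comparison, in which 36.9% of all genes were called, 2 other ligands rose, as Vcam1 did: Madcam1 from 0.711 to 5.04 CPM (1.83, adjusted p = 6.2e-09) and Jam2 from 2.63 to 7.09 CPM (1.16, adjusted p = 1.6e-05). Between labels in PA2 at E10.5, where 10.3% of all genes were called, 1 of these 8 ligands was called. This was Emilin1, a matrix glycoprotein bound by alpha4 and alpha9 integrins, at 210 ± 23.4 CPM (SD, n = 3) under the Hoxa2-/- label and 98.2 ± 22.1 CPM (n = 3) in wildtype (log2 difference 1.11, adjusted p = 6e-05). Osteopontin (Spp1) averaged 2.39 against 6.19 CPM there and was not called (-1.10, adjusted p = 0.13).

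Of the other integrin subunits, 1 of 12 alpha chains and 1 of 7 beta chains were called between labels in PA2 at E10.5, both higher. The share of all genes called there was 10.3%, for the adaptors below as well, so these counts set no list apart. These were Itga5, the alpha chain of the fibronectin receptor (65.8 ± 5.36 against 40.9 ± 4.05 CPM, SD, n = 3 each, 0.68, adjusted p = 0.018), and Itgb5 (252 ± 8.95 against 189 ± 8.83 CPM, 0.41, adjusted p = 0.0019). Their lists had medians of 0.13 and 0.11, against 0.00 over all genes. Of 17 adaptors that bind integrin tails, 2 were called, both higher: paxillin (Pxn), which binds the alpha4 tail (65.9 ± 1.23 against 32.5 ± 4.68 CPM, 1.01, adjusted p = 0.014), and Bcar1 (121 ± 6.18 against 87.1 ± 6.66 CPM, 0.47, adjusted p = 0.049). Their list had a median of 0.08. Itgb7, the other beta chain that pairs with alpha4, averaged 1.72 against 1.17 CPM and was not called (0.31, adjusted p = 0.45).

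Among 18 further immunoglobulin adhesion molecules, 1 was called in that comparison, against 10.3% of all genes. It was Cadm1, which was higher under the Hoxa2-/- label (243 ± 33.9 against 150 ± 22.1 CPM, SD, n = 3 each, 0.70, adjusted p = 6.5e-05), and the median of the list was -0.12. None of 7 genes that shed Vcam1 or bind its tail, and none of 8 NF-kB and interferon genes known to regulate it, was called there, and their medians were 0.18 and -0.04. Vcam1 was thus the one gene called lower among the members and all 7 lists, and Itga9 the one with the highest difference. In wildtype PA2 over PA1 at E9.5, when Vcam1 was called higher, 7 of the 18 adhesion molecules were higher and 1 lower, against 26.3% of all genes called in either direction, among them L1cam (9.14 against 2.52 CPM) and Alcam (7.28 against 2.69 CPM).

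**Figure D4:**
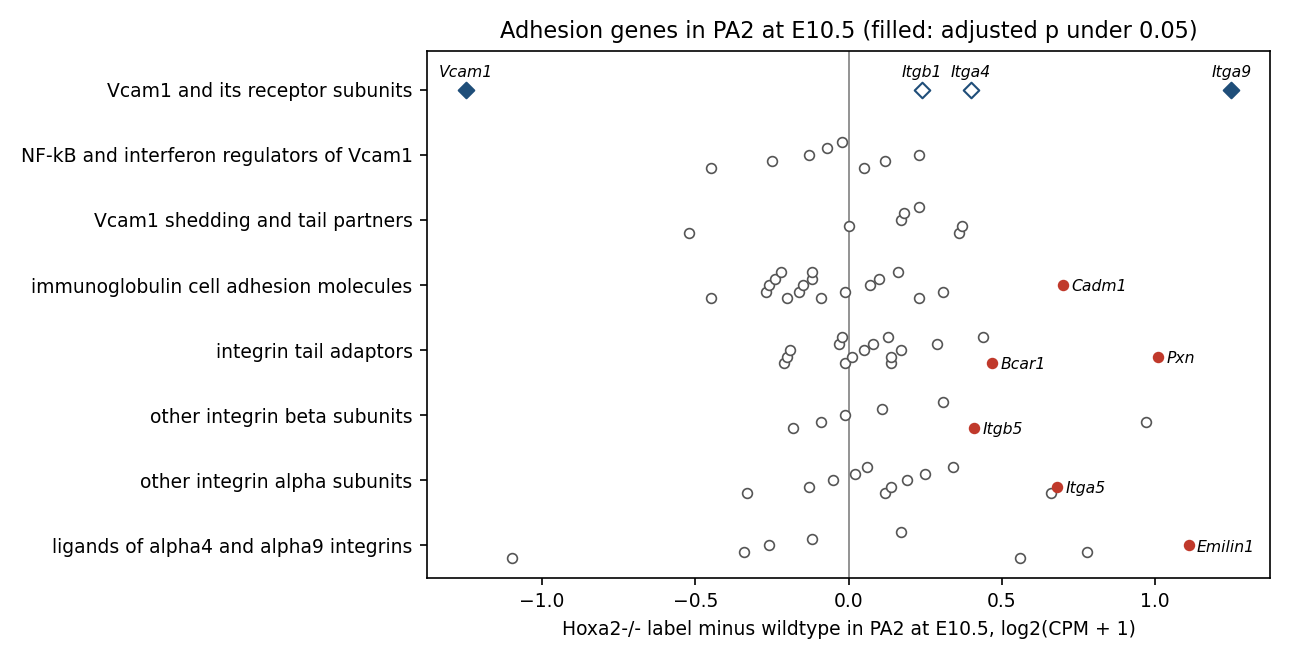
Difference of the Hoxa2-/- label minus wildtype in PA2 at E10.5 on the log2(CPM + 1) scale, with a point for each gene by list and filled points for an adjusted p under 0.05. Vcam1 (-1.25) lies furthest to the left and Itga9 (1.25) furthest to the right, and the 6 filled genes of the lists, Emilin1, Itga5, Itgb5, Pxn, Bcar1 and Cadm1, lie to the right of 0. Of all genes 10.3% were called in this comparison.

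The genes most like each member were ranked among 11348 genes by Pearson's r of the PA2 minus PA1 difference over the 33 embryos. Their libraries share stages, labels and processing, and include the PA2 libraries of E10.0 that served to choose Vcam1 and Itga4, so these values are a description. The genes most like Vcam1 were Ptx3 (0.77), Epha3 (0.76), Tcf12 (0.74), Cdh11 (0.72) and Gpm6a (0.72). For Itga4 they were Ahdc1 (0.74), Rtel1 (0.69), Fut8 (0.69), Hoxa2 (0.68) and Ipo13 (0.68). Itga9 had closer company in Zfp521 (0.93), Slc38a1 (0.92), Sema5a (0.92), Wnt5a (0.91) and Cecr2 (0.91), and Itgb1 had Calu (0.88), Csf1 (0.85), Dsg2 (0.85), Txnip (0.84) and Sft2d2 (0.83). By Spearman's rho 1, 2, 1 and 4 of these sets of 5 stayed among the 5 highest for Vcam1, Itga4, Itga9 and Itgb1. Over the embryos Vcam1 had an r of -0.10 to Itga4, 0.19 to Itgb1 and 0.43 to Itga9, which stood at rank 859 of the 11348 genes for Vcam1. Itga4 and Itga9 had an r of 0.63 to each other, at rank 33 for Itga4 and 1831 for Itga9.

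Over the 16 group means, the genes most like Vcam1 were Cldn1 (r 0.93), Rftn2 (0.91), Tcf12 (0.91), St6gal2 (0.91) and Megf9 (0.90), so that Tcf12 was in both sets. For Itga4 they were Mphosph9 (0.92), Gja1 (0.91), Adamts18 (0.90), Krt14 (0.88) and Gng2 (0.88). For Itga9 they were Atxn2, Ipo13 and Dhx16 (0.96 each) with Ncdn and Prep (0.95 each), and for Itgb1 Dsg2 (0.97), Aplp2, Fam234a and Pros1 (0.96 each) and Pced1a (0.95). Here Vcam1 had an r of 0.20 to Itga4, -0.51 to Itga9 and -0.66 to Itgb1. By Spearman's rho 1, 3, 1 and 0 of these sets of 5 stayed among the 5 highest. The 16 means include those of PA2 at E10.0, from which Vcam1 and Itga4 were chosen, so these values too are a description.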

How the data were processed

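RNA from 68 arches was sequenced. Per the labels' protocols, polyadenylated RNA was made into cDNA with SMART-seq v4 and Nextera XT, with no molecular identifiers described, so counting error is understated. Per the submitters' processing notes, bcl2fastq 2.18, TopHat2 2.1.1, R 3.3.2 and build mm10 were used. The counter and annotation are not given in the sources used here. The authors deposited 1 table of CPM-like signal for 21948 genes. Column totals ran from 926298 to 1051959, and 100% of the values were whole multiples of 1 read (within 0.001 reads), so reads were recovered. The tests are those planned for CPM. GENCODE M21 gave 21921 symbols. Among 116 replicate pairs chi-square per degree of freedom was 6.38 to 107, so none was a copy.

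Genes that reached a CPM of 1 in 3 or more libraries were tested with limma 3.58.1 (R 4.3.3) on log2(CPM + 1), 1 mean per group over all libraries, trended prior, two-sided, Benjamini-Hochberg adjusted. Fold changes on this scale understate low genes. The script was tested on simulated data. Replicates are separate embryos per the series text, which also takes both arches from 1 embryo. Deviations of the 2 arches correlated (median 0.35, over 0.1 in 30 of 33 pairs), and blocking on the embryo was tried. Other alternatives were pseudocounts of 0.25 and 5, other filters, median-of-ratios scaling, edgeR 4.0.16 on recovered reads, only the compared groups, and libraries left out. Named list genes were up to 4 of those called, by size of difference, with a mean of at least 5 CPM in a group, and others named were chosen after their values were seen. The members and lists were chosen with earlier results of these data known, and the change of the arch difference from E9.0 to E10.5 was added after seeing the values.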

Additional observations from a re-analysis of the deposited data

Results flagged for a closer look

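In 1 of 48 group tests of a far sample, a rate below the 1 in 20 that chance gives, a library stood apart: Itgb1 was at 851 CPM in replicate 3 of PA1 labelled Hoxa2-/- at E9.5, where the other 4 libraries held 391 to 454 CPM. The difference between arches changed from E9.0 to E10.5 by the test for Vcam1 in wildtype (1.34 on the log2 scale), Itga9 in wildtype (0.93, not called with the embryo as a block) and under the Hoxa2-/- label (1.71), and Itga4 under the Hoxa2-/- label (0.89), each toward PA2.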

How the results depend on the processing

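Limits: Itga4 rests on few reads, and groups of 3 libraries at E10.5 miss small differences. No call of a comparison was reversed by any alternative run. Another scaling moved the median of all genes by at most 0.026, and the filter of 5 CPM and the random embryo block (correlation 0.22, for labels) changed no call. With the replicate block (embryo), Vcam1 between wildtype arches at E9.0 was -0.79 and called, the stage change of Itga9 in wildtype 0.92 (adjusted p 0.053), and the uncalled difference of label effects at E9.0 turned to 0.09 for Vcam1 and 0.01 for Itga4, and no other call changed. No paired analysis was possible for E10.5 against E9.0 because the embryos differ.

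For Vcam1, the difference between arches labelled Hoxa2-/- at E9.0 (-0.70) lost its call with a pseudocount of 5 (-0.49), no filter (-0.70), median-of-ratios scaling (-0.69), edgeR (-0.61), only the compared groups (-0.70) and without libraries high in red cell or yolk sac markers (-0.42). The wildtype stage change of its arch difference (1.34) was uncalled at a pseudocount of 0.25 (1.38) and without those libraries (1.27), and its wildtype arch difference at E10.5 was called with only the compared groups (0.73). The difference of label effects at E9.0 was 0.03 with edgeR and 0.11 without those libraries for Vcam1, 0.06 at a pseudocount of 5 and 0.17 without those libraries for Itga4, and 0.00 with edgeR for Itgb1, none of them called.

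For Itga4 the wildtype arch difference at E10.0 was -1.64 and -0.65 at pseudocounts of 0.25 and 5 and -1.69 with edgeR. Its label difference in PA2 at E10.0 was 0.38 at a pseudocount of 5 and 1.11 with edgeR, and the difference of label effects there 0.37 and 1.09. Its arch difference labelled Hoxa2-/- at E9.5 lost its call with only the compared groups (-0.72). Its rise in wildtype PA1 lost its call at a pseudocount of 0.25 (0.53), with no filter (0.47), edgeR (0.53) and without the marker-high libraries (0.35). Its stage change of the arch difference was -0.04 in wildtype at a pseudocount of 5, and under the Hoxa2-/- label uncalled at a pseudocount of 5 (0.35), with no filter (0.89), median-of-ratios scaling (0.87), only the compared groups (0.89) and without the marker-high libraries (0.89).

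For Itga9, the arch difference labelled Hoxa2-/- at E9.0 lost its call with only the compared groups (-0.68) and without the marker-high libraries (-0.42), and the wildtype stage change at a pseudocount of 0.25 (0.94) and with no filter (0.93). For Itgb1, the wildtype arch difference at E9.5 was called without the marker-high libraries (0.34), and with only the compared groups the label difference in PA1 at E9.5 (0.39) and the fall in PA2 labelled Hoxa2-/- (-0.62) were uncalled. The cause of these changes was not tested.

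With each library left out in turn, the differences below crossed the threshold or 0 at least once. The lowest and highest values for Vcam1 were -0.79 and -0.44 (E9.0) or 0.74 and 1.02 (E9.5) between wildtype arches, and between arches labelled Hoxa2-/- -0.98 and -0.42 (E9.0), -0.10 and 0.25 (E9.5) or -0.28 and 0.16 (E10.5). Between labels they were -0.30 and 0.01 in PA1 at E10.0, -0.83 and -0.28 in PA2 at E9.0 and -1.46 and -1.06 at E10.5, with -0.37 and 0.19 for the difference of label effects at E9.0 and 1.18 and 1.53 for the wildtype stage change. For Itga4 they were -0.04 and 0.16 between labels in PA1 at E10.0, -0.02 and 0.31 in PA2 at E9.5, -0.10 and 0.09 for the difference of label effects at E9.0, 0.40 and 0.53 for the rise in wildtype PA1, 0.48 and 0.65 in PA2, and 0.80 and 0.99 for the stage change of the Hoxa2-/- label. For Itga9 they were -0.01 and 0.24 between wildtype arches at E10.5, -0.85 and -0.42 between arches labelled Hoxa2-/- at E9.0, -0.12 and 0.01 between labels in PA1 at E9.0, -0.03 and 0.18 at E10.0, and -0.06 and 0.38 in PA2 at E9.0. They were -0.02 and 0.42 (E9.0) or -0.13 and 0.09 (E9.5) for its difference of label effects, 0.14 and 0.58 for its change in PA2 labelled Hoxa2-/-, and 0.82 and 1.08 for its wildtype stage change. For Itgb1 they were 0.28 and 0.42 between wildtype arches at E9.5, 0.18 and 0.46 between those labelled Hoxa2-/-, and between labels -0.02 and 0.33 in PA2 at E9.0, and in PA1 -0.03 and 0.08 at E10.5, 0.19 and 0.47 at E9.5, and -0.02 and 0.09 at E10.0. They were -0.17 and 0.18 (E9.0) or -0.16 and 0.12 (E9.5) for its difference of label effects, -0.46 and -0.37 for its fall in wildtype PA1, -0.62 and -0.49 in PA1 labelled Hoxa2-/-, and -0.27 and 0.02 for the stage change of that label. The 19 tested differences that crossed 0 were uncalled with all libraries, with values of -0.10 to 0.19 where the sign differed. Of the differences described without a test, 3 crossed 0, all at E10.0: Vcam1 between arches labelled Hoxa2-/- (-0.19 to 0.12), Itgb1 between labels in PA2 (-0.09 to 0.04) and its difference of label effects (-0.12 to 0.01).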
